A study of Mus musculus with 9 samples.

Results

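Matricellular proteins are secreted into the extracellular matrix but act mainly as signals to cells and not as its scaffold. The 7 genes described here, Tnc, Thbs1, Thbs2, Postn, Sparc, Sparcl1 and Spp1, were taken by symbol from the deposited matrix of 20778 genes. All 7 were found, and all 7 passed the filter on low values (an average of 10 or more across 9 libraries), which left 13773 genes for testing. The study set GL261, a mouse glioblastoma line labelled with mCherry, in culture beside brain cells against GL261 tumours in the animal. The 3D bioink group (3 libraries) held GL261 with primary astrocytes, microglia, pericytes and endothelial cells from brains of male C57BL/6 mice aged 6 to 10 weeks, in a fibrin gel. The 2D culture group (3 libraries) held the same mixture on a petri dish. In both cultures GL261 was seeded at 1000000 cells per ml. The tumour group (3 libraries) came from brains of immunocompetent male C57BL/6 mice, implanted in the striatum with 50000 GL261 cells at 7 weeks of age and killed on day 14. The primary cells were separated with antibody-coated beads, and those left over were used as the astrocytes. A 3 h digestion in collagenase II (600 U/ml) before RNA extraction is recorded for the bioink alone. That digestion goes with the bioink group and cannot be told apart from it.

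Tenascin C, thrombospondins, periostin, SPARC and osteopontin bind collagens, growth factors and cell-surface integrins, and loosen or strengthen the hold of a cell on its matrix. Most are low in the resting adult brain and are known from development, wounds and tumours, glioma included, where tumour cells, vessel cells, reactive astrocytes and macrophages make them. Sparcl1, also called hevin, is secreted by healthy astrocytes and promotes synapse formation.

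The values are normalized counts, as deposited and rounded to whole numbers by the authors. Their read depth is unknown. They summed to 13548461 to 13683978 in bioink, 15572800 to 15711632 in 2D culture and 16320090 to 16388074 in tumour libraries, and these sums follow the normalization. Each library is a mixture, so fewer cells of a type and less RNA per cell cannot be told apart. The labels do not say whether libraries of a group came from separate mice or cultures, and they say that libraries were loaded in triplicate. Every p-value here thus reflects scatter among the libraries as loaded, possibly technical only. Between libraries of a group, the median chi-square per gene was 1.51 to 7.64, against 0.455 for pure counting noise if the values were raw counts. Bioink replicate 1 stood apart, with a limma array weight of 0.236. Without it, every member kept its direction and its call in both comparisons that use the bioink, with Spp1 at a log2 fold change of 4.57 against tumours and Postn at -1.68.

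The pair of genes with the largest differences, Spp1 and Thbs2, rose together in the bioink, so their promoters are shown. The sequences are those of RefSeq for GRCm38.p6, from 250 bases before to 50 after an annotated start, each read 5′ to 3′ on the gene's own strand. They lie at chr5:104434861-104435160 (plus strand) for Spp1 and chr17:14694213-14694512 (minus strand) for Thbs2. Capitals mark matches, on either strand, to letters searched for as AP-1 (TGANTCA), RUNX (AACCACA), SP1 (GGGCGG), NF-Y (CCAAT) and the TATA box (TATAAA).
Spp1: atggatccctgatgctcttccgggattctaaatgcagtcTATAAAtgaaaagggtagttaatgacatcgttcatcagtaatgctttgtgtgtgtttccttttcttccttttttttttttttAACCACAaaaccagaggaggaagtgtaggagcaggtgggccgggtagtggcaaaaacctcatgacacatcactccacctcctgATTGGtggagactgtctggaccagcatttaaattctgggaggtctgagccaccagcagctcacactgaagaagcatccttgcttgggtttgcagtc
Thbs2: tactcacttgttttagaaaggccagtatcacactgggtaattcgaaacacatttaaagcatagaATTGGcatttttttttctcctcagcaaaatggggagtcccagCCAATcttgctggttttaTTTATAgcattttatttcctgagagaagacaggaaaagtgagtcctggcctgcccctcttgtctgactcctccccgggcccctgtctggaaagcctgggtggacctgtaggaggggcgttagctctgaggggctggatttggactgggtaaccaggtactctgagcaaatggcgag

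Both windows held the NF-Y letters, found in 37.4% of the 32851 windows of the same length, and the TATA letters, found in 13.6%. In neither gene did the TATA letters lie at the usual short distance before the start: they began at position -211 in Spp1 and -126 in Thbs2, counted from the annotated start. The RUNX letters, at position -129, were in the Spp1 window and in 5.27% of all windows. No match to the AP-1 letters (7.81% of windows) or the SP1 letters (35.7%) was in either one. Elsewhere, both Tnc windows held the SP1 and TATA letters, but the windows overlap and the matches are the same stretches. They began at -167 and -126 from the start of 1 window and at -246 and -205 from that of the other. In 1 of the Postn windows TATAAA was at position -26. The Sparc window (chr11:55420031-55420330) and a second window of Spp1 (chr5:104435942-104436241) held none of the 5 motifs. Both lie inside the genes as annotated in GENCODE M21. The sequence at the outermost start of Sparc was thus not searched. A match is a description of the sequence and not a site of binding. Of the 7 members, 5 had windows in the table, and those without were Thbs1 and Sparcl1.

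Spp1 encodes osteopontin, a phosphoprotein of bone and of inflamed tissue that binds integrins and Cd44. It lies at chr5:104435118-104441050 in GRCm38. Its normalized counts were 23703, 25751 and 26429 in bioink, 2127, 2220 and 2171 in 2D culture, and 1098, 1074 and 1109 in tumours. The groups did not overlap, and the bioink libraries stood far above the other two groups. Against tumours Spp1 was 23.1-fold higher in bioink (log2 fold change 4.53, SE 0.05, limma adjusted p = 2.46e-11). In 2D culture it was 1.99-fold higher than in tumours (log2 fold change 0.99, SE 0.05, adjusted p = 1.7e-07). Between the cultures it was 11.6-fold higher in bioink than in 2D culture (log2 fold change 3.54, SE 0.05, adjusted p = 1.28e-10). The absolute log2 change between the cultures was at least as large as that of 98.3% of all genes tested.

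The thrombospondins of this pair are large trimeric glycoproteins that both restrain blood vessel growth, and Thbs1 in addition activates latent TGF-beta. They moved in opposite directions. Thbs2 (chr17:14665500-14694235) had 15919, 17094 and 16281 normalized counts in bioink, 3192, 3470 and 3224 in 2D culture, and 2083, 1942 and 2186 in tumours. The 3 groups were fully separated, with the tumours lowest. Thbs2 was 7.94-fold higher in bioink than in tumours (log2 fold change 2.99, SE 0.06, limma adjusted p = 4.93e-10), and 1.59-fold higher in 2D culture than in tumours (log2 fold change 0.67, SE 0.06, adjusted p = 6.52e-06). Against 2D culture it was 4.99-fold higher in bioink (log2 fold change 2.32, SE 0.06, adjusted p = 3.98e-09).

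Thbs1 (chr2:118111876-118127133) had 1927, 2197 and 2384 normalized counts in bioink, 3142, 3317 and 3263 in 2D culture, and 6434, 6168 and 6008 in tumours. Here the tumours were highest and the bioink lowest, again with no overlap. Thbs1 was 2.87-fold lower in bioink than in tumours (log2 fold change -1.52, SE 0.07, limma adjusted p = 1.23e-07) and 1.91-fold lower in 2D culture than in tumours (log2 fold change -0.94, SE 0.07, adjusted p = 3.16e-06). It was also lower in bioink than in 2D culture (log2 fold change -0.58, SE 0.07, adjusted p = 8.96e-05). That difference was smaller under 3 other scalings, at -0.39 to -0.35 (limma adjusted p up to 0.00844), a spread that the SE does not hold.

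**Figure D1:**
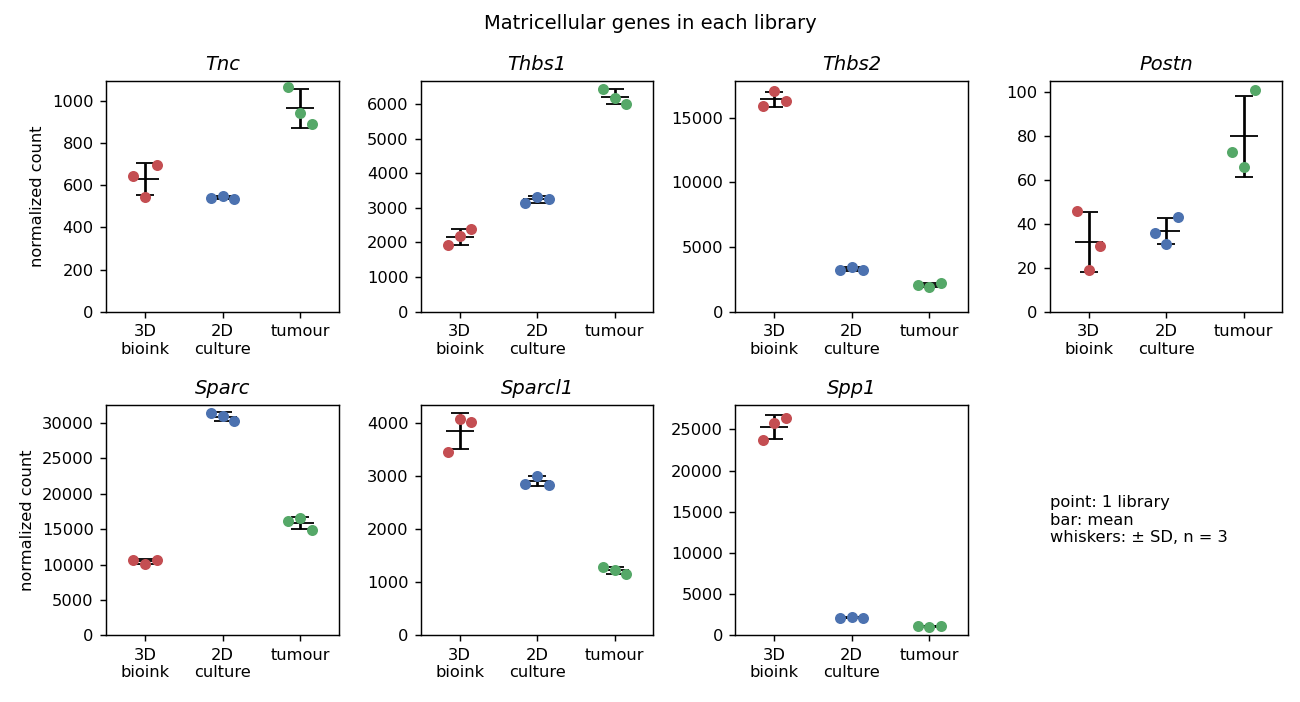
Normalized counts (linear axes from 0) of the 7 genes in each of the 9 libraries, by group, with the group mean and SD (n = 3). Spp1 and Thbs2 stand highest in 3D bioink, Sparc in 2D culture, and Thbs1, Tnc and Postn in tumours.

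The ratio of the thrombospondins within a library is free of any single factor by which that library was scaled. The ratio of Thbs2 to Thbs1 normalized counts was 8.26, 7.78 and 6.83 in bioink, 1.02, 1.05 and 0.988 in 2D culture, and 0.324, 0.315 and 0.364 in tumours. These ratios are not corrected for length and are read across groups only. Their order was the same as that of Thbs2 itself, with the widest spread in bioink. For Sparcl1 over Sparc the ratio was 0.325, 0.406 and 0.379 in bioink, 0.0909, 0.0971 and 0.0939 in 2D culture, and 0.08, 0.0745 and 0.078 in tumours. The 2D culture and tumour ratios lay close together, and those in bioink stood apart. Both pairs were chosen with the levels known, so no test is given.

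**Figure D2:**
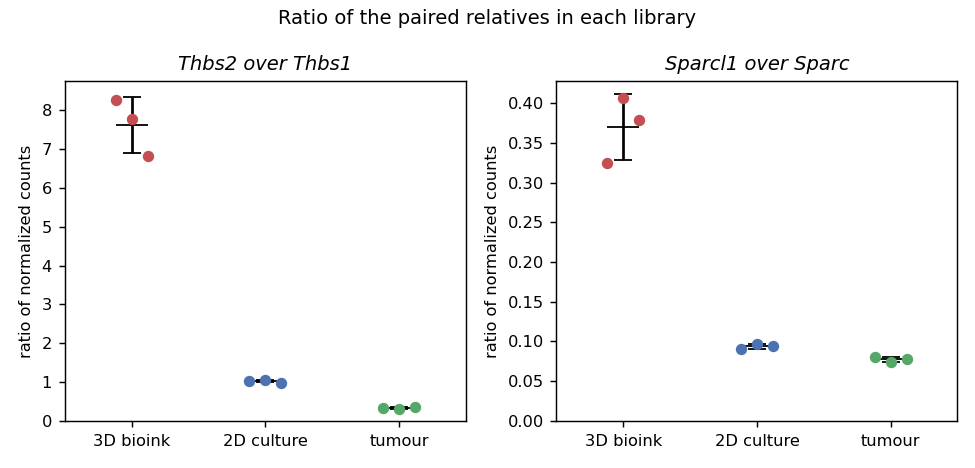
Ratio of normalized counts of Thbs2 to Thbs1 and of Sparcl1 to Sparc in each of the 9 libraries, by group, with mean and SD (n = 3). The bioink libraries are highest in both panels, at 6.83 to 8.26 for the thrombospondins and 0.325 to 0.406 for the SPARC pair.

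Sparc encodes a collagen-binding glycoprotein that loosens cell adhesion and is made by vessel cells and by many gliomas. Sparc (chr11:55394500-55423183) had 10643, 10064 and 10603 normalized counts in bioink, 31420, 31023 and 30232 in 2D culture, and 16118, 16584 and 14919 in tumours. It was the one member that differed from tumours in opposite directions in the cultures, with no overlap between any groups. In bioink it was 1.52-fold lower than in tumours (log2 fold change -0.60, SE 0.05, limma adjusted p = 4.49e-06), a call that was lost after quantile normalization (log2 fold change -0.12, adjusted p = 0.0639). In 2D culture it was 1.95-fold higher than in tumours (log2 fold change 0.96, SE 0.05, adjusted p = 1.92e-07). Between the cultures Sparc was 2.96-fold lower in bioink than in 2D culture (log2 fold change -1.57, SE 0.05, adjusted p = 1.82e-08).

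Its relative Sparcl1 (chr5:104079111-104113733) had 3459, 4081 and 4022 normalized counts in bioink, 2857, 3011 and 2840 in 2D culture, and 1290, 1236 and 1163 in tumours. Both cultures stood above the tumours, and the bioink libraries stood above those of 2D culture. Sparcl1 was 3.13-fold higher in bioink than in tumours (log2 fold change 1.65, SE 0.07, limma adjusted p = 6.65e-08) and 2.36-fold higher in 2D culture than in tumours (log2 fold change 1.24, SE 0.07, adjusted p = 3.82e-07). The difference between the cultures was smaller, 1.32-fold higher in bioink than in 2D culture (log2 fold change 0.41, SE 0.07, adjusted p = 0.000909). Under 3 other scalings its log2 fold change was 0.60 to 0.67.

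Tnc encodes tenascin C, a multi-armed anti-adhesive protein that is a classic matrix component of glioma and of its vessels. Tnc (chr4:63959785-64047015) had 644, 546 and 695 normalized counts in bioink, 541, 548 and 533 in 2D culture, and 1067, 940 and 888 in tumours. Every culture library was below every tumour library, while the cultures overlapped each other. Tnc was 1.54-fold lower in bioink than in tumours (log2 fold change -0.62, SE 0.10, limma adjusted p = 0.000505) and 1.78-fold lower in 2D culture than in tumours (log2 fold change -0.83, SE 0.10, adjusted p = 8.55e-05). Under 3 other scalings the value for bioink against tumours was -0.46 to -0.36 (limma adjusted p up to 0.0136). Between bioink and 2D culture the log2 fold change of 0.21 did not pass (95% interval -0.02 to 0.44, adjusted p = 0.111). It passed without bioink replicate 2 (0.31, adjusted p = 0.0241), with array weights and under all 3 other scalings, at up to 0.44. The array weights of bioink replicates 1, 2 and 3 were 0.236, 0.761 and 4.96. The weighted value thus rests largely on replicate 3, the bioink library with the most Tnc.

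Postn encodes periostin, a collagen-associated integrin ligand of fibroblasts and mesenchymal cells. Postn (chr3:54361109-54391037) had 46, 19 and 30 normalized counts in bioink, 36, 31 and 43 in 2D culture, and 73, 66 and 101 in tumours. It had the lowest values of the 7 genes in every group, at 31.7 ± 13.6 in bioink, 36.7 ± 6.03 in 2D culture and 80 ± 18.5 in tumours (SD, n = 3). It was lower in bioink than in tumours (log2 fold change -1.37, SE 0.36, limma adjusted p = 0.00774) and in 2D culture than in tumours (log2 fold change -1.09, SE 0.36, adjusted p = 0.0277). The call for 2D culture was lost after quantile normalization (adjusted p = 0.335) and without 2D culture replicate 1 (0.068) or 2 (0.0878) or tumour replicate 1 (0.0507) or 3 (0.0922). Bioink and 2D culture overlapped, and their difference did not pass (log2 fold change -0.28, 95% interval -1.09 to 0.53, adjusted p = 0.533).

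**Figure D3:**
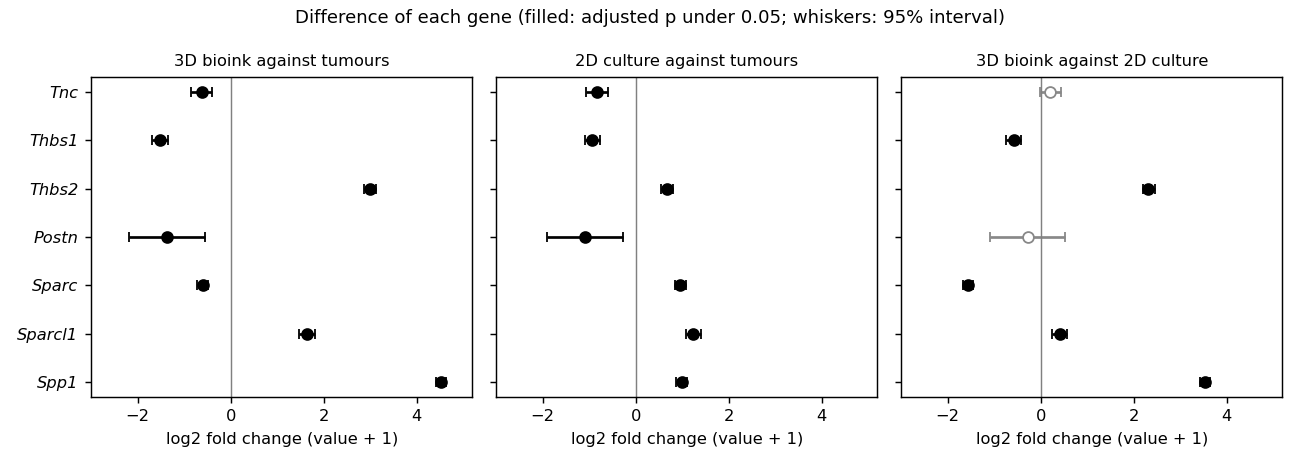
Log2 fold change of each gene on the log2(value + 1) scale in the 3 comparisons, with limma's 95% interval. Filled points have an adjusted p under 0.05, and the open ones are Tnc (0.21) and Postn (-0.28) in bioink against 2D culture.

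Counted together, 3 members were higher and 4 lower in bioink than in tumours, where 64.4% of all genes tested were called, 27.1% higher and 37.3% lower. In 2D culture 4 were higher and 3 lower than in tumours, against 54.3% of all genes called, 27.3% higher and 27% lower. Between bioink and 2D culture, 3 were higher, 2 lower and 2 not called, against 59.2% of all genes called, 27% higher and 32.2% lower. The median log2 fold change of the members was -0.60, 0.67 and 0.21 in these comparisons, beside -0.12, 0.01 and -0.02 over all genes tested. In neither culture did any member overlap the tumours, where 67.6% of all genes tested did not overlap in bioink (28.7% higher and 38.9% lower) and 63.9% in 2D culture (32.2% higher and 31.7% lower). Between bioink and 2D culture 5 members did not overlap, against 67.1% of all genes (31.5% higher and 35.6% lower). The number of members called is therefore read against a table in which most genes were called. Their sizes vary more: the largest member changes were at the percentile 96.9 of absolute log2 change in bioink against tumours (Spp1), but the smallest, Sparc, was at 42.7. The 2 comparisons with tumours share the tumour libraries. The median over all genes in bioink against tumours moved to 0.04 to 0.14 under 3 other scalings, so the bioink values carry an uncertainty of scale. Single members could move by more: Sparc in bioink against tumours was at -0.60 as deposited and -0.12 after quantile normalization.

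Levels of different genes were compared per kb of merged exons (GENCODE M21). Spp1 was first of the 7 in bioink, at 15350 ± 861 normalized counts per kb (SD, n = 3), ahead of Sparc at 2755 ± 85.4 and Thbs2 at 2346 ± 85.9. In 2D culture Sparc was first, at 8155 ± 160 per kb, with Spp1 next at 1318 ± 28.2. In tumours Sparc was also first, at 4191 ± 227 per kb, followed by Thbs1 at 1021 ± 35.4 and Spp1 at 663.6 ± 10.9. Postn was last in all 3 groups, at 3.64 ± 1.56 per kb in bioink, 4.21 ± 0.693 in 2D culture and 9.19 ± 2.13 in tumours. The 7 genes together made up 0.416% to 0.443% of the deposited sum in bioink, 0.272% to 0.28% in 2D culture and 0.162% to 0.173% in tumours.

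For each member, the 3 genes with the closest profile were sought by the root mean square difference of centred log2(value + 1) values over the 9 libraries, a description with no test. Such a difference tends to be larger for genes with large changes. Spp1, with the largest changes of the members, lay farthest from its nearest gene, though with a Pearson r of 0.981 to it. Its nearest was Ctsk, the collagen-degrading cathepsin K, at 0.376, with 420 to 618 normalized counts in bioink, 48 to 52 in 2D culture and 13 to 36 in tumours. Cpxm1 (0.481) and Sh2d4b (0.509) followed. Closest to Thbs1 were the transcriptional repressor Etv6 (0.0586), the ERK phosphatase Dusp6 (0.0741) and Chmp4b (0.0796). Dusp6 had 4107 to 4404 normalized counts in bioink, 6412 to 6753 in 2D culture and 11238 to 12676 in tumours, the same order as Thbs1.

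Sparc lay nearest to Rpa2 and Nde1, which encode a subunit of the single-strand DNA binding complex RPA and a centrosomal protein of dividing cells, at 0.0695 and 0.074, then to Pabpc4 (0.0801). Thbs2 lay nearest to the zinc transporter gene Slc30a4 (0.106), Fam110c (0.197) and Utp14b (0.204). Sparcl1 was nearest to Greb1 (0.078), Sacm1l (0.0859) and Dlg1 (0.0944). The nearest to Tnc were Slc41a1 (0.102), Camta2 (0.109) and Fam98c (0.11), and to Postn Tmbim4 (0.262), Lacc1 (0.276) and Scml2 (0.277). Among the members themselves, Thbs1 and Postn (0.414) and Tnc and Thbs1 (0.416) were the closest pairs, and Thbs1 and Spp1 (2.52) the farthest apart.

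Counts of genes called in this and the later lists are read against the shares of all genes called given above. Of 22 other matricellular and related genes, 17 were tested. In bioink against tumours 6 were higher and 5 lower (8 or 9 higher under 3 other scalings), with a median log2 fold change of -0.03. Comp, a thrombospondin of cartilage and tendon, was at 378, 254 and 195 in bioink, against 7, 8 and 2 in tumours (log2 fold change 5.47, limma adjusted p = 8.44e-05). Tnxb, the tenascin of loose connective tissue, was at 980.67 ± 139.8 in bioink and 279 ± 37.2 in tumours (SD, n = 3; log2 fold change 1.81, adjusted p = 1.66e-06). Tgfbi, a TGF-beta-induced integrin ligand related to periostin, fell to 680 ± 174 in bioink, against 15551 ± 385 in tumours (SD, n = 3; log2 fold change -4.55, adjusted p = 1.78e-08). Tnr, the tenascin of oligodendrocytes and perineuronal nets, was at 6, 0 and 0 in bioink, against 261, 193 and 227 in tumours (log2 fold change -6.89, adjusted p = 3.18e-05; -7.82 without bioink replicate 1).

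In 2D culture against tumours 5 of these 17 were higher and 8 lower, with a median of -0.18. Tgfbi was at 294 ± 25.9 in 2D culture and 15551 ± 385 in tumours (SD, n = 3; log2 fold change -5.72, limma adjusted p = 3.09e-09), and Tnr was listed at 0 in all 3 2D libraries. Nov, a member of the CCN family, was at 246, 219 and 222 in 2D culture, against 0, 20 and 5 in tumours (log2 fold change 5.52, adjusted p = 0.000498; 4.35 without tumour replicate 1 and 6.55 without replicate 2). Lgals1, which encodes galectin 1, was at 12005 ± 1456 in 2D culture and 5639 ± 342 in tumours (SD, n = 3; log2 fold change 1.08, adjusted p = 1.26e-05). Between bioink and 2D culture 8 were higher and 2 lower, with a median of 0.72. Comp (log2 fold change 4.91, adjusted p = 0.000212; 4.12 without 2D culture replicate 2) and Tnxb (1.99, adjusted p = 1.1e-06) led the rises. Lgals1 fell by 1.29 (adjusted p = 4.04e-06), while Fstl1, a SPARC-like glycoprotein gene, fell by 0.25 (adjusted p = 0.00351) but did not pass under 3 other scalings (adjusted p = 0.413 to 0.797).

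Of 24 genes for receptors of matricellular proteins, 23 were tested, and Cd36, a thrombospondin receptor, was too low, at 0, 3 and 1 in bioink, 0 in all 3 2D libraries, and 21, 28 and 0 in tumours. In bioink against tumours 14 receptors were higher and 6 lower (median log2 fold change 0.80, beside -0.12 for all genes). The integrin chains Itga8 and Itgb8 rose, with Itga8 at 272 ± 32.9 in bioink and 26 ± 8.89 in tumours (log2 fold change 3.38, limma adjusted p = 1.8e-06) and Itgb8 at 585 ± 58.7 in bioink and 216 ± 15.8 in tumours (SD, n = 3; 1.43, adjusted p = 3.92e-06). Itga9, whose integrin binds both tenascin C and osteopontin, was at 31.7 ± 6.66 in bioink and 567 ± 20.8 in tumours (SD, n = 3; log2 fold change -4.14, adjusted p = 6.48e-07). Stab1, a scavenger receptor of macrophages and sinus endothelium that takes up SPARC, was at 201 ± 26.1 in bioink and 2082 ± 49.1 in tumours (SD, n = 3; log2 fold change -3.37, adjusted p = 4.09e-07).

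In 2D culture against tumours 10 receptors were higher and 10 lower (median 0.27). Itga8 (log2 fold change 2.47, limma adjusted p = 1.82e-05) and Itga3 (1.85, adjusted p = 3.82e-06) rose, and Itga9 (-5.47, adjusted p = 9.55e-08) and Stab1 (-5.38, adjusted p = 1.67e-08) fell. Between bioink and 2D culture 15 receptors were higher and 4 lower (median 0.82), and 15 to 17 were higher and 2 lower under 3 other scalings. Ptprz1, a glial receptor phosphatase that binds tenascins, rose (log2 fold change 2.51, adjusted p = 0.00015), at 389, 221 and 136 in bioink against 31, 51 and 38 in 2D culture. Stab1 also rose (2.00, adjusted p = 1.68e-05), and Itga3 (-1.39, adjusted p = 2.96e-05) and the calreticulin gene Calr (-1.27, adjusted p = 5.17e-05) fell. The receptors of osteopontin did not share 1 order across the groups (those named here were chosen after their values were seen). Itgav was at 11927 ± 531 in bioink, 8645 ± 75.8 in 2D culture and 4598 ± 274 in tumours, and Cd44 at 8370.0 ± 122 in bioink, 6345 ± 132 in 2D culture and 4822 ± 34.8 in tumours (SD, n = 3), both in the order of Spp1. Itgb5, a partner chain of Itgav, was highest in tumours, at 1274 ± 172 in bioink, 1410 ± 74.9 in 2D culture and 5602 ± 179 in tumours (SD, n = 3). Itga9 was also highest in tumours. Itga4 was at 1589 to 1745 in bioink, 1250 to 1298 in 2D culture and 1812 to 2020 in tumours.

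Of 10 genes of the TGF-beta axis, all tested, 5 were higher and 3 lower in bioink than in tumours (2 lower under 3 other scalings). The feedback inhibitor Smad7 was at 2728 ± 191 in bioink and 1045 ± 65.3 in tumours (SD, n = 3; log2 fold change 1.38, limma adjusted p = 4.03e-07). The ligand Tgfb1, whose latent form thrombospondin 1 activates, was at 666 ± 96.7 in bioink and 2005 ± 81.2 in tumours (SD, n = 3; log2 fold change -1.60, adjusted p = 8.25e-07), and Tgfb3 at 598 ± 63.2 in bioink and 1038 ± 42.2 in tumours (SD, n = 3; -0.80, adjusted p = 4.95e-05). All 10 were lower in 2D culture than in tumours (9 after quantile normalization; median -0.75), with Tgfb1 at -3.35 (adjusted p = 5.36e-09). Of all genes tested, 27% were called lower in that comparison. Between bioink and 2D culture 9 were higher and none lower (median 1.10), with Smad7 at 2.46 (adjusted p = 2.07e-08). There 27% of all genes tested were called higher and 32.2% lower.

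Of 13 enzymes that cross-link, cleave or phosphorylate matrix proteins, 11 were tested. Against tumours 6 were higher and 4 lower in bioink, with a median log2 fold change of 0.14, and 3 were higher and 7 lower in 2D culture, with a median of -1.48. Against 2D culture 10 were higher and none lower in bioink (median log2 fold change 1.24), beside 27% higher and 32.2% lower of all genes tested. Mmp3, a stromelysin that cleaves osteopontin and SPARC, was at 5947, 5662 and 5861 in bioink, 13, 23 and 9 in 2D culture, and 6, 8 and 16 in tumours, which gave a log2 fold change of 9.15 for bioink against tumours (limma adjusted p = 4.58e-08) and 8.60 for bioink against 2D culture (adjusted p = 1.02e-07). Ctsk, the gene closest to Spp1, was 3.31 higher on the log2 scale in bioink than in 2D culture (adjusted p = 2.07e-05). Tgm2, the transglutaminase that cross-links osteopontin, was at 1147 ± 134 in bioink, 592 ± 45.5 in 2D culture and 20839 ± 435 in tumours (SD, n = 3), lower in bioink (log2 fold change -4.19, adjusted p = 7.05e-10) and in 2D culture (-5.14, adjusted p = 1.11e-10) than in tumours.

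The others named by the same rule were Lox, Ctsb, Adamts4 and Mmp12. Lox, the collagen cross-linking oxidase, had 2638, 2147 and 2195 in bioink, 2161, 2161 and 2189 in 2D culture, and 0, 9 and 17 in tumours. Its log2 fold change was 8.68 in bioink and 8.59 in 2D culture against tumours (limma adjusted p = 1.07e-05 and 1.36e-05). Without tumour replicate 1 these values were 7.43 and 7.34, and without replicate 3 they were 9.52 and 9.42. The lysosomal protease gene Ctsb was at 8416 ± 922 in bioink and 23757 ± 795 in tumours (SD, n = 3; log2 fold change -1.50, adjusted p = 1.23e-07). In 2D culture against tumours the aggrecanase gene Adamts4 was higher (2.98, adjusted p = 7.71e-09) and the macrophage elastase gene Mmp12 lower (-3.39, adjusted p = 2.98e-07).

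**Figure D4:**
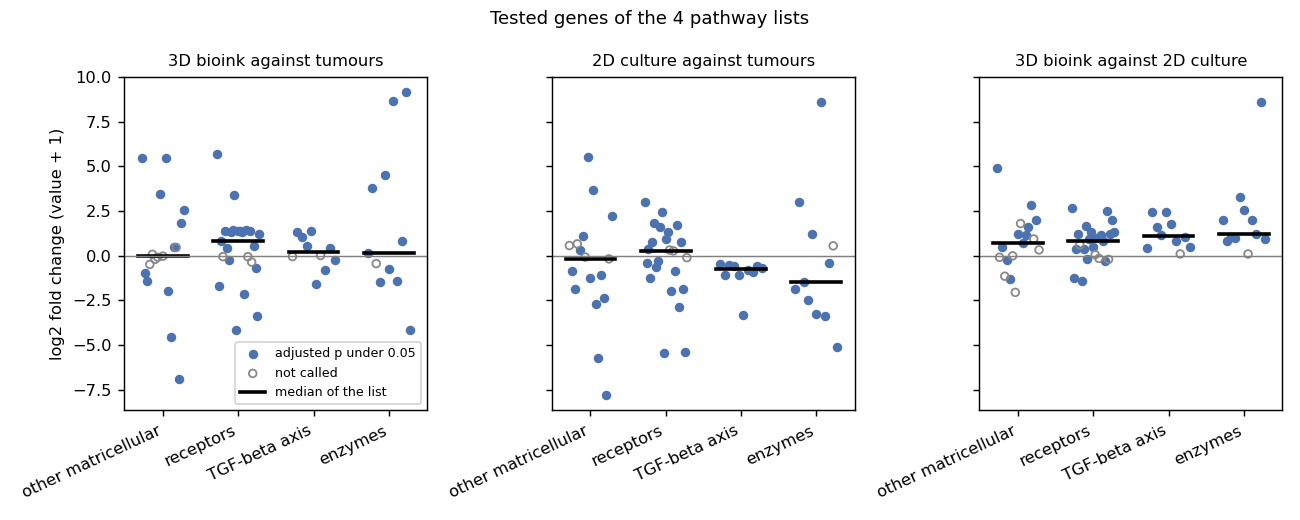
Log2 fold change of each tested gene of the 4 pathway lists in the 3 comparisons, with the median of each list as a bar. In bioink against 2D culture the called genes of the TGF-beta axis (9 of 10) and of the enzymes (10 of 11) all lie above 0. Of all genes tested, 27% were called higher there and 32.2% lower.

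Marker genes of cells that can make these proteins were read beside the members. Macrophages are a known source of osteopontin in glioma. In bioink against tumours 9 of 10 macrophage markers were lower and Gpnmb was higher, and their summed normalized counts were 34049 to 37156 in bioink, 6584 to 6973 in 2D culture and 74844 to 79671 in tumours. Gpnmb, a glycoprotein gene that tumour cells can also express, made up most of the bioink sum, at 33516, 34808 and 36611 in bioink, 6775, 6456 and 6398 in 2D culture, and 28200, 28132 and 26168 in tumours. Csf1r, the receptor that macrophages and microglia depend on, was at 39, 59 and 47 in bioink, 21, 21 and 14 in 2D culture, and 7306, 7194 and 7026 in tumours. Lyz2 was at 125, 129 and 163 in bioink, 36, 67 and 49 in 2D culture, and 16530, 15992 and 16108 in tumours. Spp1 was highest in bioink, where 9 of 10 macrophage markers were below their tumour level. All 10 markers were higher in bioink than in 2D culture (7 after quantile normalization), as Spp1 was. The part of macrophages in the Spp1 differences of bioink from tumours and from 2D culture was not tested. Csf1r was chosen after its values were seen. In 2D culture Adgre1 and C1qa were listed at 0 in all 3 libraries. In bioink Adgre1 was at 2, 6 and 3 and C1qa at 19, 12 and 3. Arg1, Mrc1 and Ms4a7 were also low, at means of 17.7, 16.7 and 24.7 in bioink and 5, 5 and 9 in 2D culture. Several of the 10 calls between the cultures thus rest on low values.

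**Figure D5:**
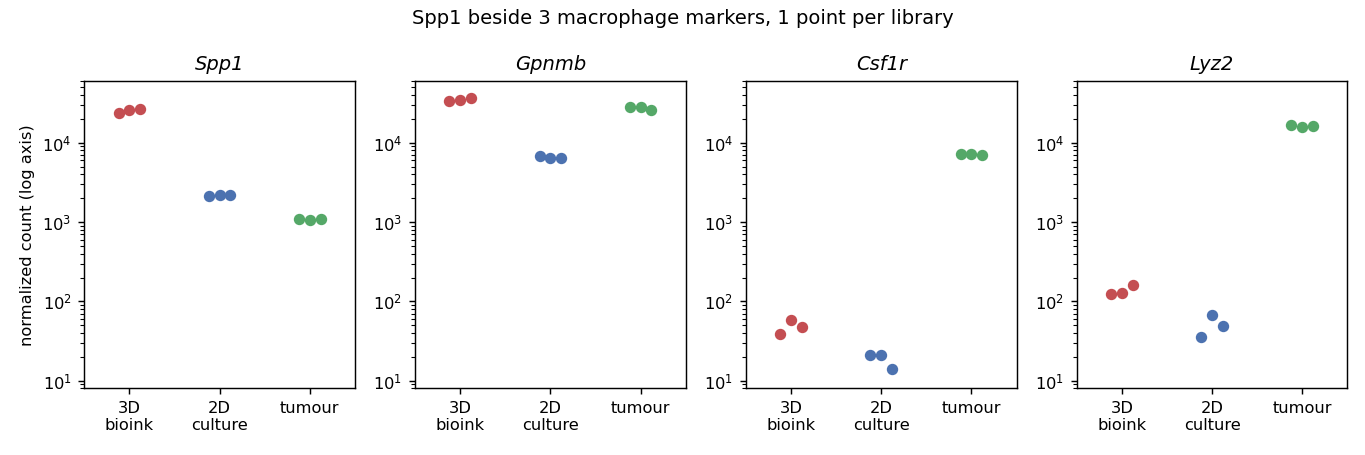
Normalized counts (log axes) of Spp1 and of the macrophage markers Gpnmb, Csf1r and Lyz2 in each library, by group. Spp1 and Gpnmb are highest in 3D bioink, while Csf1r and Lyz2 are at most 163 in every culture library and at least 7026 in every tumour library.

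Microglia were seeded in both cultures, but 7 of 8 of their markers were lower than in tumours in each. In bioink 6 were lower at equal upper quartiles and at equal sums. The summed normalized counts were 1490 to 1564 in bioink, 894 to 1002 in 2D culture and 12575 to 13295 in tumours. The microglial gene Fcrls had 0 in each bioink library, 2, 0 and 0 in 2D culture, and 972 to 1043 in tumours. Olfml3 was at 389 ± 45.5 in bioink, 246 ± 22 in 2D culture and 2280 ± 111.5 in tumours (SD, n = 3). Fibroblasts, a known source of Postn and Thbs2, are not among the seeded cells. All 8 fibroblast markers were higher in bioink than in 2D culture, and 6 were higher and 1 lower in bioink than in tumours. Their summed normalized counts were 23874 to 25736 in bioink, 11902 to 12619 in 2D culture and 13030 to 13828 in tumours, and none was at 0 in all 3 libraries of a group. Col3a1 was at 8537 ± 387 in bioink, 2859 ± 26.7 in 2D culture and 12181 ± 433 in tumours, and Col1a1 at 7449 ± 371 in bioink, 5345 ± 64 in 2D culture and 662 ± 11.6 in tumours (SD, n = 3). Of 6 tested pericyte markers 4 were higher in bioink than in 2D culture and 4 were higher and 2 lower than in tumours, at sums of 2829 to 3006 in bioink, 1031 to 1079 in 2D culture and 4260 to 4647 in tumours. Kcnj8 and Vtn of that list were at 0 in all 3 2D libraries. Cspg4 was at 1984 ± 32.2 in bioink, 699 ± 20.2 in 2D culture and 1319 ± 68.2 in tumours, and Anpep at 360 ± 54.5 in bioink, 73 ± 8.19 in 2D culture and 2888 ± 214 in tumours (SD, n = 3). The part of these cells in the Thbs2 difference was not tested.

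Astrocyte markers, read beside Sparcl1, were higher in 3 and lower in 2 of 8 cases in bioink against tumours, and higher in 3 and lower in 3 in 2D culture against tumours, at sums of 6519 to 6878 in bioink, 6098 to 6366 in 2D culture and 5394 to 5815 in tumours. In bioink against 2D culture 3 of the 8 were higher and none lower (5 higher under 3 other scalings), as Sparcl1 was. None of the 8 was at 0 throughout a group. The gap junction gene Gja1 was at 2356 to 2527 in bioink, 2442 to 2600 in 2D culture and 1789 to 1985 in tumours, and Aldoc at 1745 to 2374 in bioink, 1883 to 1928 in 2D culture and 1312 to 1547 in tumours. Gfap and Slc1a3, chosen after their values were seen, had another order, with Gfap at 362 to 395 in bioink, 149 to 187 in 2D culture and 553 to 625 in tumours, and Slc1a3 at 207 to 248 in bioink, 63 to 85 in 2D culture and 483 to 605 in tumours. Endothelial markers, read beside Sparc, summed to 6119 in bioink replicate 1 and to 3913 and 4053 in the other bioink libraries. The sums were 4242 to 4650 in 2D culture and 4737 to 5041 in tumours. In each culture 1 of 8 was higher and 3 lower than in tumours (2 lower in bioink at equal upper quartiles and at equal sums). Pecam1 was at 5407, 3162 and 3030 in bioink, 3451 to 3879 in 2D culture and 4101 to 4477 in tumours. Cdh5 was at 525 to 654 in bioink, 574 to 613 in 2D culture and 124 to 172 in tumours.

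Platelets store thrombospondin 1, and their marker Pf4, chosen after its values were seen, was at 0 in every bioink and 2D library and at 216, 223 and 185 in tumours. The 6 platelet markers summed to 254 to 346 in bioink, 137 to 148 in 2D culture and 295 to 360 in tumours, and of the 3 that were tested 2 were higher and 1 lower in bioink than in tumours. The leading ones, Gp1ba and Itga2b, were at 120 to 193 and 121 to 145 in bioink, 81 to 106 and 41 to 65 in 2D culture, and 30 to 72 and 25 to 72 in tumours. Sums for oligodendrocytes were 4811 to 5263 in bioink, 6625 to 7030 in 2D culture and 1961 to 2227 in tumours, and for neurons 917 to 1175 in bioink, 1684 to 1766 in 2D culture and 4807 to 5042 in tumours. Those for mesothelial and epithelial markers were 6219 to 7166 in bioink, 649 to 1027 in 2D culture and 497 to 580 in tumours, with 4 of 5 tested higher in bioink than in tumours, and 3 higher and 2 lower in bioink than in 2D culture (2 or 3 higher and 1 or 2 lower under other scalings). The keratin gene Krt8 was at 5545 to 6575 in bioink, 110 to 134 in 2D culture and 395 to 478 in tumours, with Krt18 at 491 to 552 in bioink, 0 to 9 in 2D culture and 73 to 90 in tumours. Msln and Krt19, chosen after their values were seen, were highest in 2D culture, with Msln at 131, 0 and 115 in bioink and 321, 650 and 342 in 2D culture, Krt19 at 8 to 18 in bioink and 199 to 239 in 2D culture, and both at 0 in tumours. Among oligodendrocyte markers Mbp was at 2392 to 2663 in bioink, 5558 to 5854 in 2D culture and 775 to 857 in tumours. Of the neuronal genes Tubb3 was at 609 to 819 in bioink, 1622 to 1695 in 2D culture and 4700 to 4976 in tumours, and Syt1 at 260 to 319 in bioink, 52 to 73 in 2D culture and 61 to 137 in tumours. The part of these markers in the members' differences was not tested.

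Some readings could mix neighbouring genes. On the opposite strand in GENCODE M21, 8030451A03Rik overlaps Tnc, Gm29233 overlaps Thbs1 and Gm26703 overlaps Sparcl1, and Gm42793 overlaps Spp1 on its own strand. Whether reads were assigned by strand is not given in the sources used here, so these partners cannot be told apart in the values. Thbs2, Postn and Sparc have no overlapping gene in that annotation.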

How the data were processed

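Bulk RNA was sequenced from 9 libraries, 3 per group, made with a strand-specific kit per the labels' protocols. The values are scores deposited by the authors: counts they had normalized and then rounded. The submitters' processing notes name DESeq and DESeq2 1.24.0, kallisto and RSEM, with build mm10, in no stated role or order. The 7 members and all lists were chosen with earlier results of these data known. Values were taken as log2(value + 1), and the 13773 genes with a mean of at least 10 were fitted in 1 limma model (version 3.58.1, R 4.3.3; group means, contrasts, eBayes with a trend). Adjusted p is Benjamini-Hochberg over all genes tested, with a threshold of 0.05, and fold changes are 2 to the power of the log2 difference, which understates changes of low genes. Called means past that threshold. Pathway genes were named by rule: per list and comparison, the 2 largest rises and falls among called genes with no overlap between groups and 100 or more on average in the higher one, and per marker list the 2 highest on average. A few genes that this rule names are not reported here. Markers of 10 cell types were summed per library. Same-numbered replicates were not treated as pairs. Coordinates and exon lengths are those of GENCODE M21 (GRCm38, also called mm10).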

Additional observations from a re-analysis of the deposited data

Results flagged for a closer look

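The effect of culture against the same tumours differed between bioink and 2D culture for 5 of the 7 genes, by limma's test of bioink against 2D culture, in which 59.2% of all genes tested were called. The difference of the log2 effects was 3.54 for Spp1 (4.53 in bioink and 0.99 in 2D culture), 2.32 for Thbs2 (2.99 in bioink and 0.67 in 2D culture) and 0.41 for Sparcl1 (1.65 in bioink and 1.24 in 2D culture). It was -0.58 for Thbs1 (-1.52 in bioink and -0.94 in 2D culture). For Sparc it was -1.57, and the effects had opposite signs, -0.60 in bioink and 0.96 in 2D culture. For each of these genes every bioink library lay on 1 side of every 2D library, as for 67.1% of all genes tested. The genes were picked by a test on the same libraries, so this adds no support. The effects share the tumour libraries.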

How the results depend on the processing

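The 3 comparisons were recomputed under other pseudocounts, filters, scalings, spread models and library weights, with 2 groups only, with the replicate number as a block, and without each library. Of 315 values for the 7 genes, 303 kept their direction and side of the threshold, 6 were weaker, 5 stronger and 1 reversed. After quantile normalization Sparc in bioink against tumours (-0.12) and Postn in 2D culture against tumours (-0.47) no longer passed. Tnc in bioink against 2D culture passed at equal upper quartiles (0.44), after quantile normalization (0.33), at equal sums (0.41) and with array weights (0.31), and it ran from 0.13 to 0.31 without single libraries. Postn ran from -1.22 to -0.91 in 2D culture against tumours without single libraries, and from -0.58 to 0.03 in bioink against 2D culture, where it turned sign without bioink replicate 2. The causes were not tested. The numbers of genes called stayed within 1.5 times in all 45 alternatives. Without single libraries they were 8238 to 8725 for bioink against tumours, 6616 to 7028 for 2D culture against tumours and 7302 to 8024 for bioink against 2D culture. The share of called genes that were higher in bioink than in tumours was 42.1% as deposited, 55% at equal upper quartiles, 51.2% after quantile normalization and 56.1% at equal sums. Against 2D culture it was 45.6% as deposited, and 60.1%, 46.8% and 57.8% in the same order. The replicate block gave 8795, 7357 and 8039 genes called in the 3 comparisons and changed no call of the 7 genes. The deviations of same-numbered libraries were little correlated (r of -0.0326 to 0.0797 over 9 pairs). With so few libraries this does not settle whether they shared a preparation. Read depth is unknown, so no limit by counting is given, and Postn is the member nearest to low values.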
